A study of Mus musculus with 2 samples.

Results

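The 10 genes described here encode the kinases that switch on NF-κB and the proteins that hold those kinases in check. They were chosen by name, not by a measured value, and all 10 of the 32285 genes in the deposited matrices that carry these names were followed: Chuk, Ikbkb, Ikbkg, Map3k14, Traf2, Traf3, Tnfaip3, Tnip1, Cyld and Tax1bp1. RNA was counted in single cells sorted from mouse bone marrow as LSK cells, which lack lineage markers and carry Sca1 and a high level of cKit, a gate that holds blood stem cells and early progenitors. Donors were young wild-type mice (WT) and young mice labelled as IκB-negative, named IkBKO in the cell table. Which IκB genes were altered, in which cells, and how many mice gave each pool is not stated in the labels. Both genotypes of a replicate were tagged with antibodies and run in 1 droplet library, so the 2 libraries gave 4 pools of cells, 1 per genotype and replicate. Nothing in the labels says that the replicates came from separate mice, so the p-values measure the spread between these pools, which may be technical. The fits share the estimate of that spread over genes, so a p-value does not rest on the gene's own spread alone.

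NF-κB dimers wait in the cytoplasm, bound by IκB proteins. Signals from receptors of the TNF family, Toll-like receptors and the IL-1 receptor build ubiquitin chains that recruit the IKK complex, which phosphorylates IκB and so marks it for destruction. In the canonical arm the kinase IKKβ acts with the scaffold NEMO. In the non-canonical arm the kinase NIK, which is held low by TRAF2 and TRAF3, works through IKKα to process p100 to p52. A20 and CYLD take the chains apart again, with ABIN1 and TAX1BP1 as adaptors of A20, and the A20 gene is itself a textbook target of NF-κB, which closes a feedback loop. In blood formation this pathway is known for its part in inflammatory signalling to stem cells and in myeloid and dendritic cell development.

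To show what a κB site looks like in these genes, the stretch of 250 bases before each annotated start was searched on both strands for the consensus that NF-κB dimers bind, named here by its name alone. RefSeq promoter windows (GRCm38.p6) existed for 9 of the 10 genes, and 4 of the 9 held a match within those 250 bases, against 4.46% of all 27025 genes in the table (3.9% of 32851 windows). They are printed because Tnfaip3 and Tnip1 are also the 2 genes called between genotypes below, while Traf3 and Cyld carry a match and were not called. Each line gives 30 bases, 5′ to 3′ on the gene's own strand, with the matched bases in capitals.
Tnfaip3, 125 to 116 bases before the start, chr10:19015516-19015545 (minus strand): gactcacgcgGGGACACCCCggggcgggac
Tnfaip3, 12 to 3 bases before the start, chr10:19015403-19015432 (minus strand): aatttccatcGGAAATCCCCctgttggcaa
Tnip1, 58 to 47 bases before the start, chr11:54962978-54963007 (minus strand): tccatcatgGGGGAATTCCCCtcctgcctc
Traf3, 10 to 1 bases before the start, chr12:111166350-111166379 (plus strand): ggcggcccgcGGGGATTTCCagcgcgcgag
Cyld, 155 to 146 bases before the start, chr8:88696863-88696892 (plus strand): ttgaccgagcGGAAAGTCCCttcagccagc
The 12 capital bases of Tnip1 hold 4 overlapping matches, counted over both strands. Relative to the GENCODE M21 gene models of the same build, the Tnfaip3 sites lie in an intron of a longer model, and the other sites lie outside the models. A match describes letters only, and no binding was measured.

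The 4 pools held 3721 and 4963 WT cells and 3962 and 5383 IkBKO cells in replicates 1 and 2, with UMIs (distinct RNA molecules) of 42165571 to 62834572 a pool. Levels are given as CPM, the UMIs of a gene per 1000000 UMIs of the pool. Cells were also gated by the UMIs of a lineage gene, with a cell allowed in several gates: Mecom (stem cell factor, at least 1), Dntt (lymphoid, at least 3), Mpo (myeloid granule enzyme, at least 20), Pf4 (megakaryocyte, at least 3) and Car1 (erythroid, at least 5). Thresholds on raw UMIs favour deeply counted cells, and the median UMIs per cell were 19454.5 to 22883 in the Mpo gate against 6983 to 13709 over all cells. With the gating gene left out, each gate's own marker list was still at its highest in that gate in all 4 pools. The margin was small for the Mecom gate, where the 8 other stem genes summed to 297.8 to 887.2 CPM against 203.8 to 715.1 CPM in ungated cells, so stem cell RNA was not confined to it. The pools differed in make-up. The share of cells with at least 10 UMIs of any list of mature or other lineage markers was 13.73% and 6.831% in WT and 51.62% and 27.83% in IkBKO cells. This cut on raw UMIs also favours deeply counted cells. Cells that pass it are called other-lineage cells below, by this cut alone. In the 40 Mpo-gate cells of WT replicate 2, the T and NK list summed to 363 UMIs, all from 1 gene. Its genes Cd3e, Cd3d, Cd3g, Trbc2 and Klrd1 were at 0 there. In the other Mpo pools 3 to 5 of its genes were above 0. How many cells passed the cut on 1 gene was not counted. Whether fits without other-lineage cells also left out early progenitors was not tested. The monocyte and dendritic list held Csf1r, Ms4a6c, Siglech, Ly86 and the MHC class II genes Cd74, H2-Aa, H2-Ab1 and H2-Eb1. Together these summed to 415 and 345.2 CPM in the WT pools, against 1382 and 1830 CPM in IkBKO pools. The sum was not split by gene, so which of them carried the rise was not tested. Mature neutrophil genes ran the other way, summing to 1385 and 1189 CPM for WT but 188.1 and 208.7 CPM for IkBKO. Genes of an early-response list, chosen as a sign of handling, did so too (Fos, Fosb, Jun, Junb, Egr1, Ier2, Dusp1 and Zfp36). They summed to 595 and 818.2 CPM for WT but 254.1 and 300.2 CPM for IkBKO, with all 8 genes of that list above 0. Handling itself was not measured, and its part in this difference was not tested. A total of 39 cell barcodes passed in both libraries. In a value summed over a whole pool, fewer cells of a type and less RNA per cell cannot be told apart, so levels within list-carrying cells are also given for the called genes.

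Over all LSK cells, the gene for A20 was about 1.8 to 2 times as abundant in IkBKO pools, the gene for its partner ABIN1 about 1.2 times, and none of the IKK subunits passed. Of the 10 genes 2 rose, 0 fell and 8 did not pass, where 7.13% of the 14742 genes tested were called higher and 6.19% lower. The median log2 fold change was 0.16 over the 10 genes and −0.0064 over all genes. A gene was called at an adjusted p of at most 0.05 in edgeR's quasi-likelihood test with the replicate as a block, and log2 fold changes give IkBKO relative to WT after TMM scaling. That scaling raises values slightly over plain CPM ratios: with library totals the median of all genes was −0.097.

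**Figure D1:**
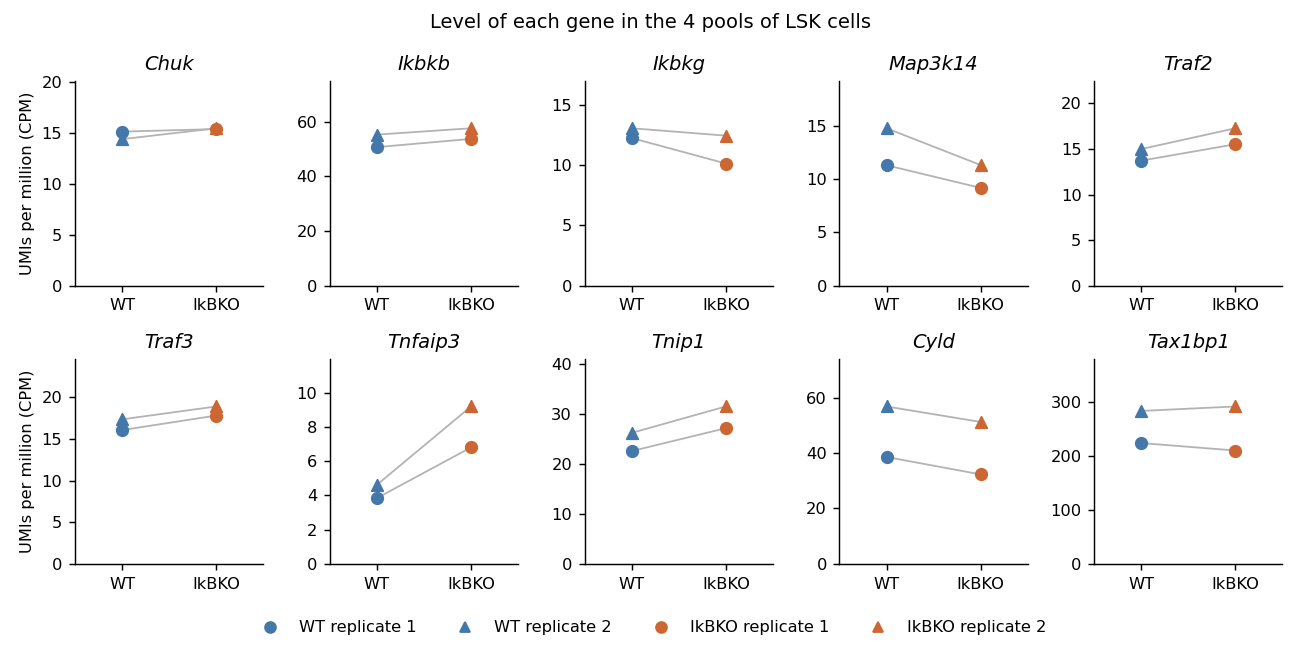
Level of each of the 10 genes (CPM, vertical axis from 0) in the WT and IkBKO pools of all LSK cells; grey lines join the pools of 1 library. Both IkBKO points of Tnfaip3 (6.81 and 9.20 CPM) lie above both WT points (3.85 and 4.63 CPM).

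Tnfaip3 encodes A20, the ubiquitin-editing enzyme that ends NF-κB signalling (ENSMUSG00000019850, mm10 chromosome 10, 19000910 to 19015657, minus strand). It stood at 3.847 and 4.625 CPM in the WT pools of replicates 1 and 2 (168 and 195 UMIs) and at 6.812 and 9.204 CPM in the IkBKO pools (428 and 564 UMIs). The genotypes did not overlap, and IkBKO was 1.771 and 1.99 times as high within the 2 libraries. The log2 fold change was 1.00 ± 0.14 (SE, 2 pools a genotype; adjusted p = 0.013). Leaving out any 1 pool, which also removes the block, gave 0.88 to 1.12 with adjusted p from 0.16 to 0.93: 0.94 (adjusted p = 0.51) without WT replicate 1, 1.12 (0.19) without IkBKO replicate 1, 1.08 (0.93) without WT replicate 2 and 0.88 (0.16) without IkBKO replicate 2. Without the block the value was 1.00 (adjusted p = 0.28).

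Tnip1 encodes ABIN1, which binds ubiquitin chains and brings A20 to its targets (ENSMUSG00000020400, chromosome 11, 54910785 to 54962917, minus strand). It stood at 22.55 and 26.18 CPM in the WT pools, against 27.12 and 31.46 CPM in IkBKO pools. The genotypes did not overlap, and the ratios within the libraries were 1.203 and 1.202. The log2 fold change was 0.36 ± 0.08 (adjusted p = 0.04). This call sat close to the threshold: it was lost with DESeq2 (0.37, adjusted p = 0.12), with library totals in place of TMM (0.27, adjusted p = 0.065), without the block (0.36, adjusted p = 0.5) and without any 1 pool (0.32 to 0.41, adjusted p from 0.3 to 1).

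The remaining brakes showed no called difference. Cyld encodes a deubiquitinase that removes linear and K63-linked chains (ENSMUSG00000036712, chromosome 8, 88697028 to 88751945, plus strand). It was at 38.58 and 56.8 CPM in the WT pools, against 32.29 and 51.21 CPM in IkBKO pools. The libraries differed more than the genotypes did, and the fold change was −0.11 ± 0.07 (adjusted p = 0.34). Tax1bp1 encodes an autophagy and ubiquitin-binding adaptor of A20 (ENSMUSG00000004535, chromosome 6, 52713729 to 52766780, plus strand). It was at 223.8 and 283.3 CPM in the WT pools, against 210.0 and 291.6 CPM in IkBKO pools, again ordered by library. Its fold change was 0.066 ± 0.083, with a 95% interval from −0.14 to 0.27 (adjusted p = 0.62).

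The IKK subunits moved little. Ikbkb, the IKKβ gene of the canonical arm (ENSMUSG00000031537, chromosome 8, 22659212 to 22706589, minus strand), was at 50.74 and 55.33 CPM in the WT pools, against 53.76 and 57.65 CPM in IkBKO pools (0.16 ± 0.08, interval −0.022 to 0.35, adjusted p = 0.19). Chuk, the IKKα gene (ENSMUSG00000025199, chromosome 19, 44073335 to 44107480, minus strand), was at 15.16 and 14.42 CPM in the WT pools, against 15.41 and 15.49 CPM in IkBKO pools (0.15 ± 0.09, interval −0.057 to 0.37, adjusted p = 0.26). Ikbkg, the gene of the scaffold NEMO (ENSMUSG00000004221, chromosome X, 74393290 to 74453854, plus strand), was at 12.23 and 13.04 CPM in the WT pools, against 10.12 and 12.43 CPM in IkBKO pools (−0.079 ± 0.101, interval −0.33 to 0.17, adjusted p = 0.62). The upper bounds of these 3 intervals lie below the lower bound for Tnfaip3 (0.66). An exon of Ikbkg overlaps one of G6pdx on the opposite strand, so its counts rest on strand being used in counting, which is not stated in the sources used here.

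The regulators of the non-canonical arm did not pass either. Map3k14, the NIK gene (ENSMUSG00000020941, chromosome 11, 103219762 to 103267472, minus strand), was at 11.31 and 14.78 CPM in the WT pools, against 9.183 and 11.33 CPM in IkBKO pools. IkBKO was 0.8119 and 0.7666 times the WT level within the libraries, and the fold change was −0.25 ± 0.10 (adjusted p = 0.16). Without the other-lineage cells of all pools it was −0.36 ± 0.11 and passed (adjusted p = 0.025). That fit called 3820 genes in either direction, against 1964 with all cells. Exons of Map3k14 overlap 1700028N14Rik on the same strand, so reads there could be split or lost. Traf2, a ubiquitin ligase adaptor of TNF receptors (ENSMUSG00000026942, chromosome 2, 25517982 to 25546940, minus strand), was at 13.72 and 14.99 CPM in the WT pools, against 15.52 and 17.27 CPM in IkBKO pools (0.28 ± 0.09, adjusted p = 0.081). Traf3, which brings NIK to its degradation (ENSMUSG00000021277, chromosome 12, 111166370 to 111267153, plus strand), was at 16.05 and 17.34 CPM in the WT pools, against 17.79 and 18.88 CPM in IkBKO pools (0.23 ± 0.08, adjusted p = 0.12). The genotypes did not overlap for Traf2, Traf3 and Chuk, although none of them passed. For any gene, a lack of overlap between 2 pools a genotype is weak evidence. Its share over all genes was not counted. The intervals of Traf2 and Traf3, 0.071 to 0.49 and 0.022 to 0.43, lay above 0 before adjustment for the number of genes tested.

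The rise of Tnfaip3 was then read by cell state. It was largest in the 7372 cells that fell in no gate, and it was also called in the Dntt gate. In ungated cells Tnfaip3 was at 4.025 and 3.79 CPM in the WT pools, against 10.65 and 13.96 CPM in IkBKO pools (1.68 ± 0.18, adjusted p = 1.5e-04). It was called without any 1 pool as well (1.51 to 1.82, adjusted p from 0.0037 to 0.047). Tnip1 rose there as well, with WT pools at 22.5 and 23.87 CPM and IkBKO pools at 25.55 and 36.1 CPM (0.44 ± 0.11, adjusted p = 0.035), with 7.5% of genes called higher. Without any 1 pool Tnip1 did not pass (0.21 to 0.63, adjusted p from 0.14 to 0.72): 0.21 without IkBKO replicate 2, 0.63 without IkBKO replicate 1, 0.45 without WT replicate 1 and 0.43 without WT replicate 2. With library totals it was at 0.41 (adjusted p = 0.053), and with DESeq2 at 0.42 (adjusted p = 0.63).

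In the Dntt gate Tnfaip3 was at 3.161 and 5.067 CPM in the WT pools (28 and 50 UMIs), against 10.19 and 6.66 CPM in IkBKO pools (38 and 49 UMIs). The fold change was 1.04 ± 0.29 (adjusted p = 0.0061), and it was the only 1 of the 10 genes called there, where 6.81% of genes were called higher. The libraries differed in size, with ratios of 3.224 and 1.314. The fit kept 1 residual degree of freedom and shared its spread over genes, so the SE need not reflect this gap. The call was lost without WT replicate 1 (0.81, adjusted p = 0.46), IkBKO replicate 1 (0.75, 0.57), WT replicate 2 (1.38, 0.19) or IkBKO replicate 2 (1.39, 0.28), with DESeq2 (1.10, adjusted p = 1), without the block (1.06, adjusted p = 0.21) and with library totals (0.96, adjusted p = 0.091).

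**Figure D2:**
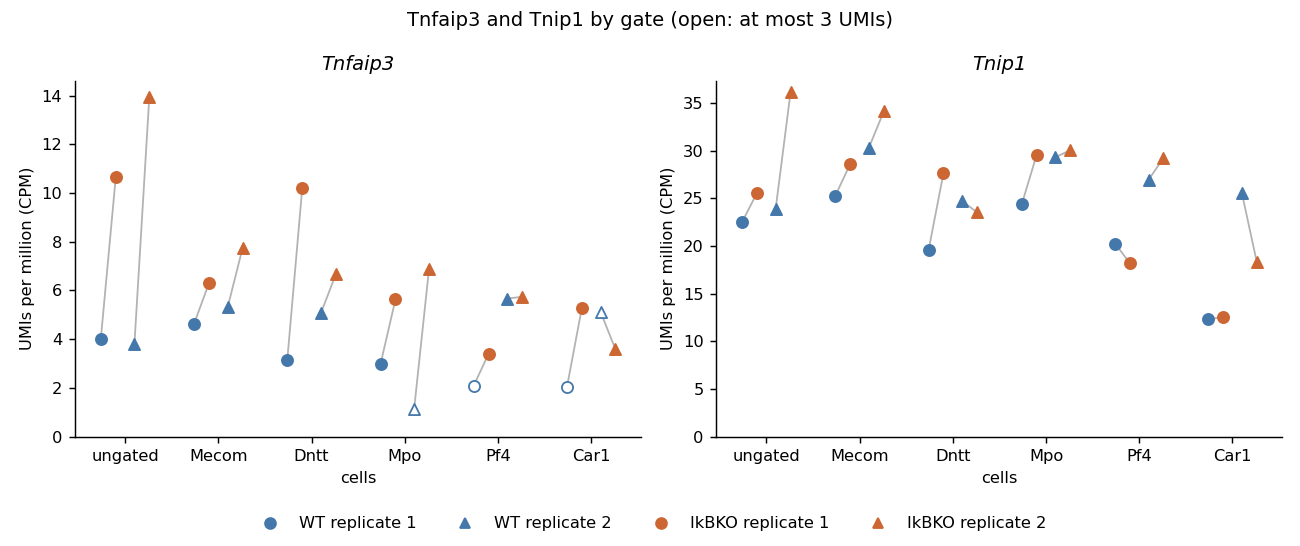
Tnfaip3 (left) and Tnip1 (right) in CPM by gate and in ungated cells, with grey lines joining the pools of 1 library and open symbols for pools with at most 3 UMIs. The ungated IkBKO pools hold the highest Tnfaip3 values (10.65 and 13.96 CPM), and Tnip1 in the Car1 gate runs from 12.29 to 25.58 CPM.

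In the other gates 0 of the 10 genes were called between genotypes by edgeR. In the Mecom gate 10.6% of genes were called in either direction. Tnfaip3 was at 4.629 and 5.308 CPM in the WT pools, against 6.303 and 7.736 CPM in IkBKO pools, with no overlap of the genotypes (0.54 ± 0.19, adjusted p = 0.1). Of the 10 genes 2 had an unadjusted p under 0.05 there, against 3173 of all 12975 genes. In the Mpo gate 0.302% of all genes were called, and WT replicate 2 held only 40 cells. Tnfaip3 had 1 UMI in that pool, and its fold change was 1.20 ± 0.43 (adjusted p = 0.88). In the Pf4 gate 1.46% of genes were called. Map3k14 was at 7.679 and 14.65 CPM in the WT pools, against 5.114 and 7.074 CPM in IkBKO pools, from 11 to 53 UMIs a pool (−0.86 ± 0.35, adjusted p = 0.31). In the Car1 gate 3.46% of genes were called, with 9 cells in WT replicate 2. There the 10 genes had between 1 and 30 UMIs in that pool, and the fold change of Tnfaip3 had an error as large as itself (0.92 ± 0.98). The number of members with an unadjusted p under 0.05 was 1 in the Mpo gate (495 of all 11607 genes), 2 in the Pf4 gate (1095 of 10415) and 1 in the Car1 gate (1151 of 9345).

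**Figure D3:**
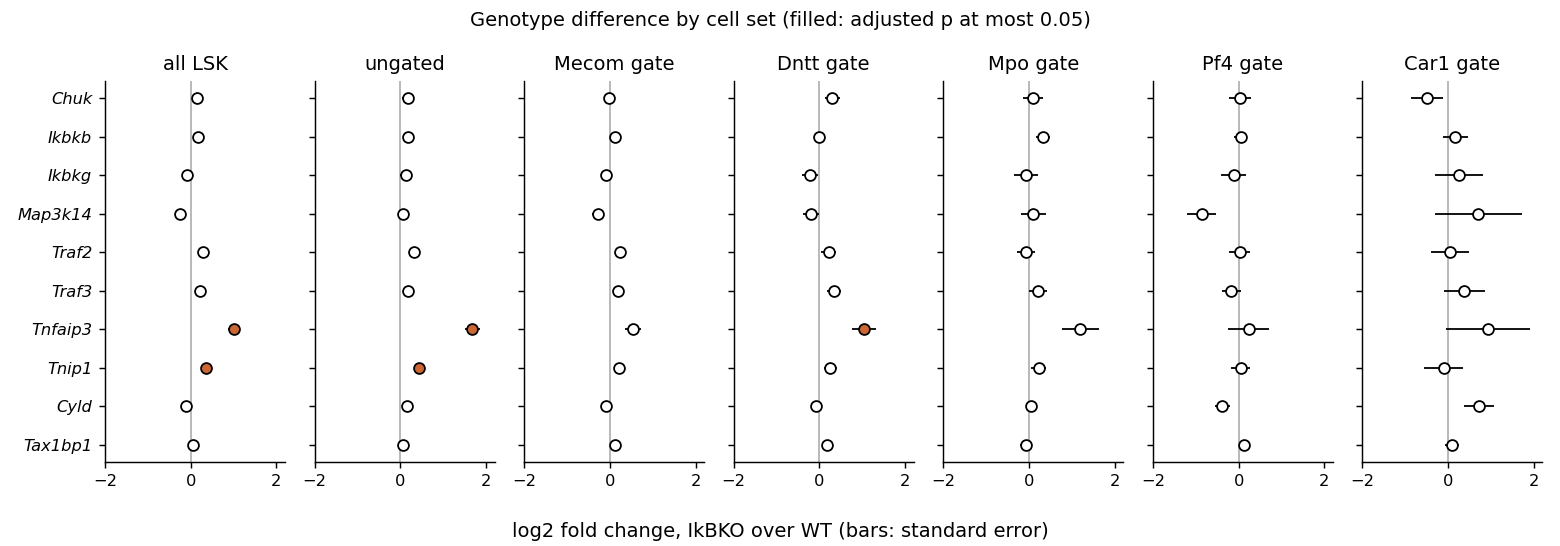
Log2 fold change of IkBKO over WT for each gene in all LSK cells, ungated cells and the 5 gates; bars are standard errors and filled points have an adjusted p of at most 0.05 in edgeR. Filled points are Tnfaip3 in all LSK cells, ungated cells and the Dntt gate, and Tnip1 in all LSK cells and ungated cells. No bar is drawn for Cyld in the Mpo gate, where the test gave no usable standard error.

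Whether the genotype effect differed between cell states was tested on cells of exactly 1 gate and ungated cells. Of the 10 genes 0 were called by edgeR in the joint test, against 1.01% of 12841 genes. Tnfaip3 had the smallest p (unadjusted p = 0.033, adjusted p = 0.49), and it was the only 1 of the 10 genes with an unadjusted p under 0.05 (1109 of all 12841 genes). Its effect in Mecom cells minus that in ungated cells was −1.20 ± 0.35 (adjusted p = 0.4). The larger rise in ungated cells is therefore not shown to differ from the rise elsewhere.

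Markers of monocytes and dendritic cells were higher in IkBKO pools of the cell sets where Tnfaip3 was called. They were also higher in both libraries in the Mecom, Pf4 and Car1 gates, where Tnfaip3 was not called. In the Mpo gate they summed to 339.3 and 1027 CPM for WT and 598.8 and 600.5 CPM for IkBKO. Mature neutrophil genes were lower over all LSK and ungated cells. In the Dntt gate those summed to 53.18 and 465.3 CPM for WT and 46.66 and 417.4 CPM for IkBKO. All 8 genes of the monocyte and dendritic list were above 0 in every all-LSK, ungated and Dntt pool. In ungated cells the list summed to 717.6 and 388.1 CPM in the WT pools, against 4383 and 4154 CPM in IkBKO pools, and in the Dntt gate to 207.5 and 272 CPM against 1199 and 675 CPM. Cells with at least 10 UMIs of the list made up 6.235% and 3.143% of WT cells and 45.13% and 22.7% of IkBKO cells. This cut on raw UMIs favours deeply counted cells. Median UMIs per cell were 9963 and 6983 in the WT pools, against 13709 and 9641 in IkBKO pools. Carrying the list therefore does not by itself make a cell a monocyte or dendritic cell. List-carrying cells held 51.87% and 24.71% of the UMIs of the IkBKO pools and 64.02% and 48.05% of the Tnfaip3 UMIs of those pools. Among the 8 genes other than Tnfaip3 and Tnip1 the same share ran from 48.8% to 55.58% in replicate 1 and from 21.78% to 31.93% in replicate 2. Tnip1 had 57.28% and 27.65% of its UMIs there. In those cells Tnfaip3 was at 5.058 and 8.112 CPM in the WT pools (21 and 16 UMIs), against 8.407 and 17.89 CPM in IkBKO cells. Of the 8 and 18 IkBKO cells with 3 or more Tnfaip3 UMIs, 6 and 18 carried the list, and of the 1 and 2 such WT cells 0 did. The same counts in IkBKO cells were 59 of 83 and 25 of 59 for Tnip1. For Traf3 they were 21 of 29 and 13 of 30. Both cuts are on raw UMIs and favour deeply counted cells. A cell, in replicate 1, held 10 Tnfaip3 UMIs. Within ungated cells the list-carrying cells stood at 4.667 and 8.823 CPM of Tnfaip3 in WT (4 and 5 UMIs) and 15.08 and 33.73 CPM in IkBKO (75 and 179 UMIs), a difference seen in both libraries.

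Tnfaip3 was also higher in IkBKO cells that carried none of the other-lineage lists. It was at 3.76 and 4.47 CPM in the WT pools, against 4.747 and 6.457 CPM in IkBKO pools of such cells. The fold change over all LSK cells became 0.52 ± 0.17 (adjusted p = 0.035), against 1.00 with all cells. That fit called 3820 genes in either direction, against 1964 with all cells, so passing was more common in it. Without the other-lineage cells Tnip1 was at 0.22 (adjusted p = 0.054). Within ungated cells Tnfaip3 then stood at 0.77 (adjusted p = 0.086) and Tnip1 at 0.30 (adjusted p = 0.21), and in the Dntt gate Tnfaip3 stood at 0.44 (adjusted p = 0.7). In ungated cells the 7 mature neutrophil genes summed to 3424 and 2197 CPM for WT but 52.27 and 161.9 CPM for IkBKO. As a ratio, though not in CPM, this was a larger shift than that of the monocyte and dendritic list, and in the other direction. The part of any marker list in these differences was not tested beyond leaving out the cells that carry other-lineage lists. When all pools were re-weighted to the same make-up of gated and ungated cells, Tnfaip3 was at 1.21 (adjusted p = 0.0018) and Tnip1 at 0.27 (adjusted p = 0.066). Re-weighting scaled up small classes, such as the Car1 cells of WT replicate 2, and the fit took the scaled values as counted UMIs. Marker differences within ungated cells were not evened out by it. With every cell thinned to 3000 UMIs the values were 1.01 (adjusted p = 0.0041) and 0.40 (adjusted p = 0.042).

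**Figure D4:**
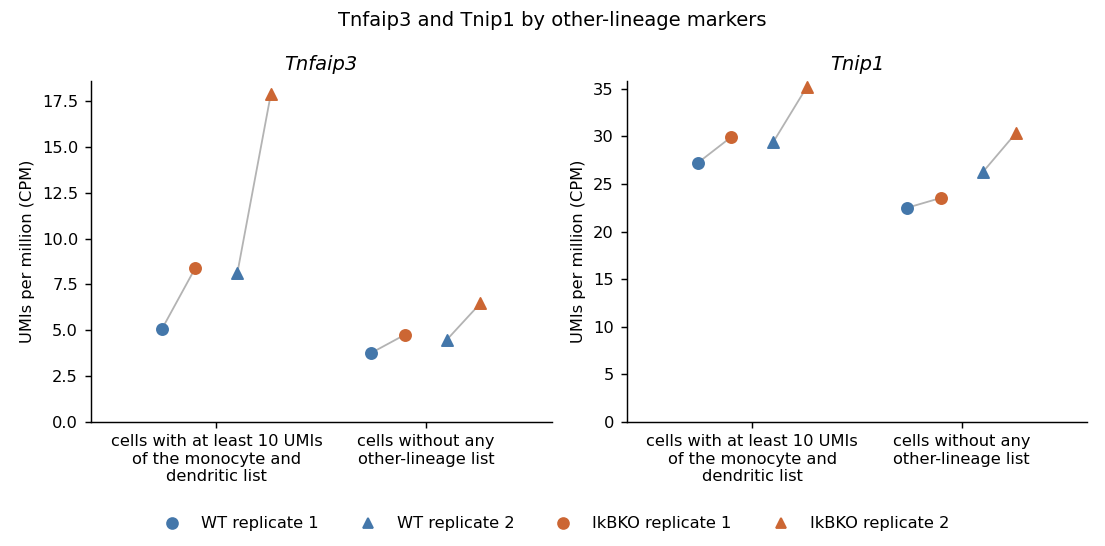
Tnfaip3 (left) and Tnip1 (right) in CPM within cells that carry the monocyte and dendritic list and within cells that carry no other-lineage list; grey lines join the pools of 1 library. In both kinds of cell each IkBKO pool lies above the WT pool of its library, with the steepest line for Tnfaip3 in list-carrying cells of replicate 2 (8.112 to 17.89 CPM).

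The genes that followed the same course as the 2 called members were sought over the 24 pools of exactly 1 gate and ungated cells, as a description. Among genes of at least 20 CPM on average, log2(CPM + 1) of Tnfaip3 correlated most with Irf1 (Pearson r = 0.895), an interferon-induced transcription factor, then with the peptide-loading gene H2-DMa (0.879) and with Nfkb1 (0.872), which encodes the NF-κB subunit p50 and its precursor. For Tnip1 they were Ms4a6b (0.876), the calcium channel gene Orai1 (0.865) and Mgst1 (0.864), a membrane glutathione transferase. The pools share libraries and differ in depth.

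The levels of the 10 genes by cell state were compared over both genotypes, each gate against all other cells within a pool. In the Car1 gate 4 of the 10 genes were called lower than in other cells and 0 higher, where 21.6% of all genes were called lower. Among the 6 that did not pass, Chuk and Traf2 had values above 0 (0.36 and 0.019, adjusted p = 0.24 and 1). Chuk was at 10.23 to 27.64 CPM there, and without IkBKO replicate 1 it was called higher (0.67, adjusted p = 0.013). Map3k14 was at 1.024 to 10.23 CPM in its 4 pools (1 to 18 UMIs) against 9.183 to 14.78 CPM in whole pools (−1.56 ± 0.35, adjusted p = 0.0016). Tnip1 was at 12.29 to 25.58 CPM there against 22.55 to 31.46 CPM in whole pools (−0.86 ± 0.21, adjusted p = 0.0033). Tax1bp1 was at 146.3 to 182.5 CPM, below the 210.0 to 291.6 CPM of every whole pool (−0.65 ± 0.16, adjusted p = 0.0036). Cyld was lower as well, at 18.43 to 32.67 CPM (−0.56 ± 0.20, adjusted p = 0.04). Map3k14 and Tnip1 were called under every alternative run for this gate. Tax1bp1 did not pass without WT replicate 1 (−0.58, adjusted p = 0.093) or IkBKO replicate 2 (−0.61, adjusted p = 0.061). Cyld did not pass without WT replicate 1 (−0.36, adjusted p = 0.34), WT replicate 2 (−0.43, adjusted p = 0.12) or IkBKO replicate 2 (−0.51, adjusted p = 0.21).

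Map3k14 was also lower in the Pf4 gate, at 5.114 to 14.65 CPM (−0.62 ± 0.18, adjusted p = 0.038), and was the only 1 of the 10 genes called there, where 8.73% of genes were called lower. It did not pass without WT replicate 1 (−0.62, adjusted p = 0.097), IkBKO replicate 1 (−0.52, adjusted p = 0.12) or IkBKO replicate 2 (−0.51, adjusted p = 0.25), or with library totals (−0.56, adjusted p = 0.058). Tnfaip3 stood at 2.094 to 5.739 CPM in this gate (−0.70 ± 0.25, adjusted p = 0.082).

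In the Mpo gate Cyld was lower and Tnip1, Traf2 and Tax1bp1 were called higher, where 25.7% of genes were called higher and 28.2% lower. Cyld was at 26.7 and 32.67 CPM in the WT and 24.98 and 39.25 CPM in the IkBKO cells of the gate, each below the whole pool it came from (−0.42 ± 0.08, adjusted p = 9.2e-04). Without other-lineage cells it was at −0.22 (adjusted p = 0.094). The rises depended on scaling. With TMM, Traf2 was at 0.35 ± 0.11, Tnip1 at 0.33 ± 0.10 and Tax1bp1 at 0.19 ± 0.06 (adjusted p = 0.021, 0.014 and 0.022). With library totals, which moved the median of all genes to −0.26, they were at 0.14, 0.13 and −0.0095 and did not pass (adjusted p = 0.49, 0.27 and 0.9). The count was then 0 higher and 4 lower, namely Ikbkg, Map3k14, Tnfaip3 and Cyld, so that Cyld was the only member called in the same direction under both. The share of all genes called lower with library totals was not counted. Traf2, Tnip1 and Tax1bp1 also failed without other-lineage cells (0.23, 0.27 and 0.14; adjusted p = 0.2, 0.097 and 0.15). Cyld passed without any 1 pool. Traf2 did not pass without WT replicate 1 (0.28, adjusted p = 0.12), WT replicate 2 (0.32, adjusted p = 0.053) or IkBKO replicate 2 (0.25, adjusted p = 0.19). Tax1bp1 did not pass without WT replicate 1 (0.18, adjusted p = 0.16) or IkBKO replicate 2 (0.15, adjusted p = 0.056), and Tnip1 did not without IkBKO replicate 1 (0.24, adjusted p = 0.12). With no filter on low counts Traf2 was at 0.28 (adjusted p = 0.072) and Tax1bp1 at 0.13 (adjusted p = 0.12).

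The Mecom and Dntt gates differed little from other cells in these genes. In the Mecom gate Cyld was at 45.5 and 62.39 CPM in the WT pools, against 40.45 and 57.99 CPM in IkBKO cells, above the whole pool in each case (0.17 ± 0.04, adjusted p = 0.015). It was the only 1 of the 10 genes called, where 14.4% of genes were called higher. It did not pass without WT replicate 1 (0.15, adjusted p = 0.094) or IkBKO replicate 2 (0.19, adjusted p = 0.056), without the pool block (0.17, adjusted p = 0.58), with cells of at least 3 Mecom UMIs (0.24, adjusted p = 0.056) or with cells of exactly 1 gate against ungated cells (0.050, adjusted p = 0.53). With library totals, where the median of all genes was 0.14, Traf3, Tnip1, Cyld and Tax1bp1 were called higher. The share of all genes called higher under that scaling was not counted. In the Dntt gate 0 of the 10 genes were called by edgeR and 2 had an unadjusted p under 0.05 (3997 of all 13182 genes), where 18.5% of genes were called in either direction. Those were Map3k14 (0.24 ± 0.10, adjusted p = 0.13) and Traf2 (−0.22 ± 0.09, adjusted p = 0.15).

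**Figure D5:**
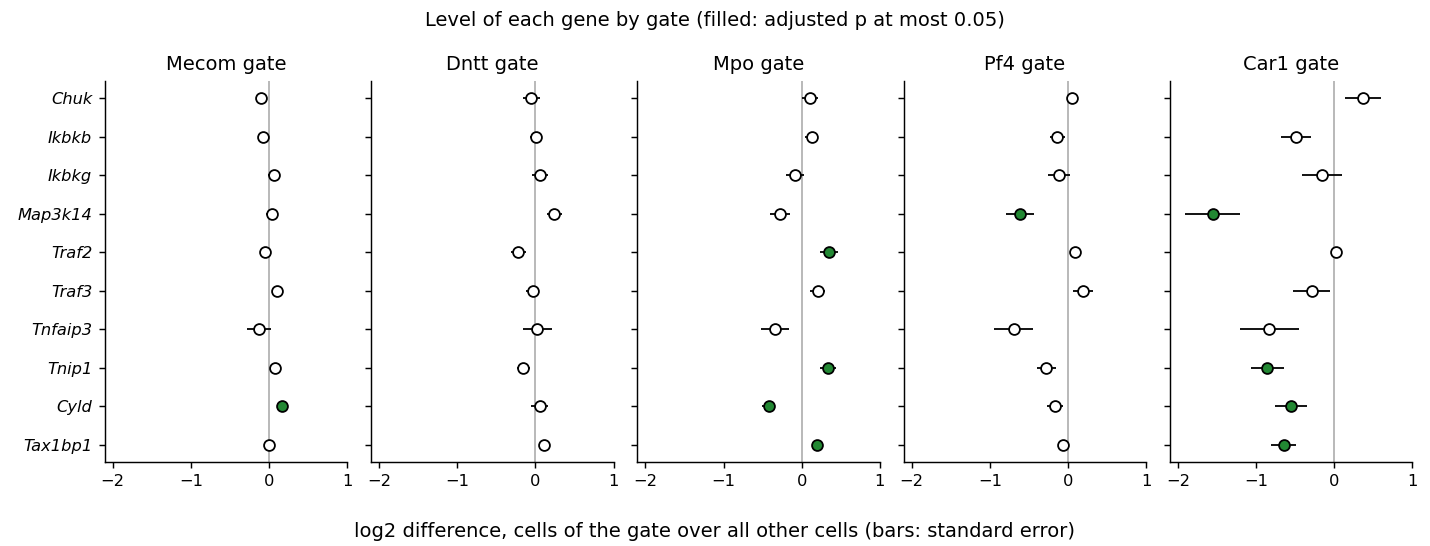
Log2 difference of each gene between the cells of a gate and all other cells of the same pools; bars are standard errors and filled points have an adjusted p of at most 0.05. In the Car1 gate Map3k14, Tnip1, Cyld and Tax1bp1 lie at −1.56 to −0.56. The filled points right of 0 in the Mpo gate do not pass with library totals. No bar is drawn for Chuk and Traf2 in the Pf4 gate and Traf2 in the Car1 gate, where the test gave no usable standard error.

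Other genes of the pathway were read over all LSK cells from 9 lists of 53 genes, all of which were tested. Of the 53 genes 6 were higher, 4 lower and 43 did not pass, and their median log2 fold change was 0.023. Over all genes tested 7.13% were called higher and 6.19% lower. Among 9 genes of the TNF receptor complex only Traf1, an adaptor and known NF-κB target, was called (3.068 and 3.463 CPM in the WT pools, 4.217 and 7.082 CPM in the IkBKO pools; 0.84 ± 0.19, adjusted p = 0.041). Birc3, the cIAP2 ligase gene, stood at 0.37 ± 0.09 (adjusted p = 0.051). None of the 6 genes for linear ubiquitin ligase subunits and deubiquitinases, 4 of the TAK1 complex, 6 of the Toll and IL-1 receptor relay and 5 of IκB degradation was called. The genes with the smallest p in these lists were Rbck1, Tab3, Myd88 and Ube2d3, with log2 fold changes of 0.27, −0.13, 0.29 and 0.11 (adjusted p = 0.066, 0.59, 0.11 and 0.45).

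Partners of A20 and the genes around the kinases TBK1 and IKKε held calls in both directions. The kinase genes Tbk1 and Ikbke were not called themselves (adjusted p = 0.9 and 0.088). Of 5 A20 partners Optn, which encodes the ubiquitin-binding receptor optineurin, was higher (4.946 and 3.771 CPM in the WT pools, 7.671 and 10.88 CPM in the IkBKO pools; 1.17 ± 0.22, adjusted p = 0.032). Tnip3, the ABIN3 gene, was lower (21.32 and 42.9 CPM against 12.41 and 33.91 CPM; −0.46 ± 0.11, adjusted p = 0.045). Of 5 genes around TBK1 and IKKε, the scaffold gene Tank was higher (18 and 20.23 CPM against 27.25 and 26.49 CPM; 0.58 ± 0.10, adjusted p = 0.02). Another adaptor gene, Tbkbp1, was lower (7.098 and 9.344 CPM against 4.249 and 5.402 CPM; −0.68 ± 0.14, adjusted p = 0.032). Of 5 receptors of the non-canonical arm Cd40, a receptor of B cells and dendritic cells, was higher (0.2519 and 0.3083 CPM against 1.973 and 2.268 CPM; 3.00 ± 0.31, adjusted p = 0.0056). Of 8 IκB and NF-κB genes 2 were higher and 2 lower. Nfkbie, which encodes IκBε, was lower (9.113 and 12.07 CPM against 2.037 and 1.975 CPM; −2.29 ± 0.18, adjusted p = 0.0028). Nfkbib, the IκBβ gene, was lower as well (19.23 and 16.1 CPM against 6.636 and 7.931 CPM; −1.19 ± 0.13, adjusted p = 0.0073). Nfkbia, the IκBα gene, did not pass (47.72 and 75.96 CPM against 42.6 and 59.68 CPM; −0.17 ± 0.09, adjusted p = 0.25). Relb, which encodes the partner of p52 in the non-canonical arm, was higher at 0.92 ± 0.14 (adjusted p = 0.017), and Nfkb2, the p100 gene, at 0.65 ± 0.13 (adjusted p = 0.033). The labels do not say whether Nfkbie and Nfkbib were among the altered IκB genes. The share of monocyte and dendritic list cells and the level of the mature neutrophil list moved with the differences above as well. Their part in those differences was not tested.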

How the data were processed

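The authors' deposited matrices hold raw counts of UMIs per gene and barcode from a 3′ droplet assay, not normalized, with a table of quality and genotype calls per barcode. Per the file headers they were written by Cell Ranger 6.0.0, and per the submitters' processing notes Cell Ranger 7.0 and Seurat 4.3.0 were used with build mm10. How those calls were made is not stated here. Counts of the 18029 passing cells (7683 of 9322 barcodes and 10346 of 24787) were summed by genotype and library, over all cells and within gates, with no further filter and no doublet removal. Genes were tested over the whole table with edgeR 4.0.16 in R 4.3.3 (robust quasi-likelihood fit, TMM, filterByExpr, two-sided, Benjamini-Hochberg), with the replicate, or for gates the pool, as a block. Both genotypes shared a library, and deviations of same-numbered pools correlated at 0.686 over 14742 genes. Genotype fits with the block kept 1 residual degree of freedom, and gate fits 3. The SE is the fold change over the root of F. DESeq2 1.42.0 was an alternative. The fit was checked on simulated counts. Intervals are 95% from the fit, and precision per gene is set by its UMIs. Gene positions are from GENCODE M21, which held 99.85% of identifiers, and promoters from RefSeq. All 10 members were named by rule, for the pathway lists up to 4 genes with the smallest p. Tbk1 and Nfkbia were named outside that rule. Members, lists and tests were chosen with earlier results of these data known. The gate rule gives no number directly after Mecom, so any Mecom UMI was used.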

Additional observations from a re-analysis of the deposited data

How the results depend on the processing

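Among recomputed counts of members called, 99 stayed within 1.5 times the reported count and 44 did not. Shares of all genes called in each direction were not counted under these settings, so the recomputed counts have no such share beside them. Among recomputed values of called members, 103 kept direction and call, 65 kept direction only and 1 changed sign: Tax1bp1 in the Mpo gate, at −0.0095 with library totals. Over all LSK cells the count of 2 became 1 with DESeq2, 1 with re-weighting, 1 with library totals, 0 with no replicate block (0 genes called at all) and 0 without any 1 pool. In the Dntt gate the genotype count of 1 became 0 with DESeq2, no replicate block, library totals, no other-lineage cells, or without any 1 pool. In ungated cells the count of 2 became 1 with DESeq2, no replicate block, library totals or without any 1 pool, and 0 without other-lineage cells. Against other cells, the Mecom count of 1 became 0 with no replicate block or at least 3 Mecom UMIs, 4 with library totals, and 0 to 1 without 1 pool. The Dntt count of 0 became 1 with gates on UMIs per 10000 (Map3k14) and 1 with cells of exactly 1 gate (Traf2). The Mpo count of 4 became 0 without other-lineage cells and 2 to 3 without 1 pool. The Pf4 count of 1 became 2 with no filter, 4 with cells of exactly 1 gate, 0 with no replicate block, library totals or gates per 10000, and 0 to 2 without 1 pool. The Car1 count of 4 became 2 to 5 without 1 pool. Leaving out a pool in a genotype fit leaves a lone pool, assumed to vary like the others. Scaling by library totals, and leaving out other-lineage cells within gates, were chosen after seeing the data. So were the levels and shares within list-carrying cells and the counts of cells with 3 or more UMIs of a gene. Gates with few cells, such as the 9 Car1 and 40 Mpo cells of WT replicate 2, limit what could be detected.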
